A study of Mus musculus with 25 samples.

Results

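Gene expression in the salivary glands was compared between 20-week-old and 8-week-old males of the strain C57BL/6.NOD-Aec1Aec2, an adult interval that leaves out the growth phase around 4 weeks. The comparison used the 10 arrays labelled with these ages, 5 from 20-week and 5 from 8-week mice, of 25 arrays in all that cover 5 ages. Each array holds the RNA of 1 male mouse, and mice are numbered as the labels number the replicates, so spread within an age is spread between mice. The strain, a model of Sjögren's syndrome, in which the immune system attacks salivary and tear glands, carries the Idd3 and Idd5 regions of the autoimmune NOD strain on a C57BL/6 background. Both ages carry these regions, and the labels give no treatment. Per the study's methods, the mice of an age came from at least 2 litters, and 1 lobe each of the submandibular, sublingual and parotid gland was taken without lymph nodes. No C57BL/6J arrays were used here, so age and disease cannot be told apart. The hour at which glands were collected is not given in the sources used here.

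Salivary glands hold acini, which secrete the fluid and proteins of saliva, ducts that modify it, and myoepithelial cells that press it out. Granular ducts of the submandibular gland in male mice store kallikreins and growth factors. In Sjögren's syndrome leukocytes gather in the gland and genes induced by interferons are often raised. Gland cells, like most cells of the body, also run a circadian clock, in which Arntl with Clock or Npas2 switches on the Per, Cry and Nr1d genes, whose products feed back on it, and in which Dbp and Tef carry the rhythm to other genes through D-box sequences.

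Values are the deposited log2 signals of Affymetrix arrays, averaged over the probe sets of a gene, and every difference is a log2 fold change, 20 weeks minus 8 weeks, with its standard error (SE). Rose, fell and changed are used for an adjusted p under 0.05, from limma with Benjamini-Hochberg adjustment over all 18194 genes. Where list members that did not pass are given with a log2 fold change and 1 value in parentheses, these are the log2 fold change and the limma adjusted p without mouse 3 at 20 weeks, unless stated otherwise. Gland markers were bright at both ages. Klk1, a kallikrein of granular ducts, lay between 14.4 and 14.66 at 20 weeks and between 14.76 and 14.88 at 8 weeks, and Bpifa2, a parotid secretory protein, between 14.21 and 15.19 at 20 weeks and between 13.88 and 15.23 at 8 weeks. Amy1, the salivary amylase of parotid acini, ranged from 10.22 to 16 at 20 weeks and from 9.76 to 15.75 at 8 weeks, so the parotid signal differed widely between mice at both ages.

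The array of mouse 3 at 20 weeks stood apart. Its median correlation with the arrays of its own age was 0.8872, against 0.9735 to 0.9875 for the other 20-week arrays and 0.9859 to 0.9916 for the 8-week arrays. Probe sets at the 3' end of Gapdh exceeded those at the 5' end by 3.866 on this array, while the other 20-week arrays lay between 0.046 and 1.114 and the 8-week arrays between 0.224 and 1.578, and a large gap is a sign of shortened RNA. Counts of genes and of list members are therefore given with and without this mouse. Over all arrays the mean of these correlations was 0.963 at 20 weeks, against 0.99 at 8 weeks (two-sided exact permutation p = 0.0159). Arrays of an age share the pairs behind these correlations, so the values permuted are not independent and the p-values are approximate. With mouse 3 removed, also as a partner of the others, the mean correlation was 0.988 at 20 weeks, against 0.99 at 8 weeks (two-sided exact permutation p = 0.889). Mouse 5 at 20 weeks then had 0.9741, against 0.993 to 0.9931 for mice 1, 2 and 4. Its actin 3' to 5' difference (3.751) and upper quartile (5.536) were nearest to those of mouse 3 (5.355 and 5.188). Mouse 5 was kept in both fits.

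**Figure D1:**
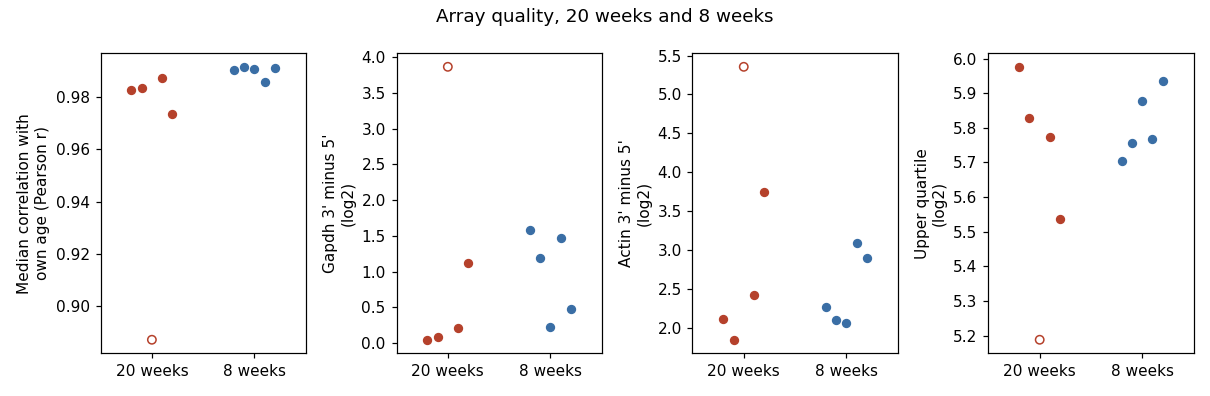
RNA and array quality by mouse, for 20-week and 8-week arrays, with the hollow point marking mouse 3 at 20 weeks. That array lies at a correlation of 0.8872 and a Gapdh difference of 3.866, away from all other arrays of both ages.

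Few genes passed the adjusted threshold with or without mouse 3, and the counts depended on the processing. With all arrays 4 genes rose (0.022% of all tested) and 11 fell (0.0605%), while 2093 genes had an unadjusted p under 0.05. Without mouse 3, 13 rose and 13 fell (0.0715% each), with 1415 genes at an unadjusted p under 0.05. The share of rising genes among those called was 26.7% with all arrays, 45.9% after quantile normalization and 51.8% with array weights. The weighted fit called 338 genes higher and 315 lower. It gave mice 3 and 5 at 20 weeks weights of only 0.0163 and 0.151. Of 29 genes called with or without mouse 3, 12 were called both times. Quantile normalization of the arrays without mouse 3 gave 55 genes that rose (0.302%) and 80 that fell (0.44%), and all 26 genes called without mouse 3 were among them. The values of the ages did not overlap for 83 genes that were higher (0.456%) and 226 that were lower (1.24%) at 20 weeks with all arrays, and for 277 (1.52%) and 289 (1.59%) without mouse 3. At an unadjusted p under 0.05, the measure used for most gene lists, 3.8% of all genes were higher and 3.97% lower without mouse 3, against 4.43% and 7.07% with all arrays, and list counts are to be read against these shares. A fit of the 20-week and 8-week arrays alone called no gene with all mice and 1006 at an unadjusted p under 0.05.

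**Figure D2:**
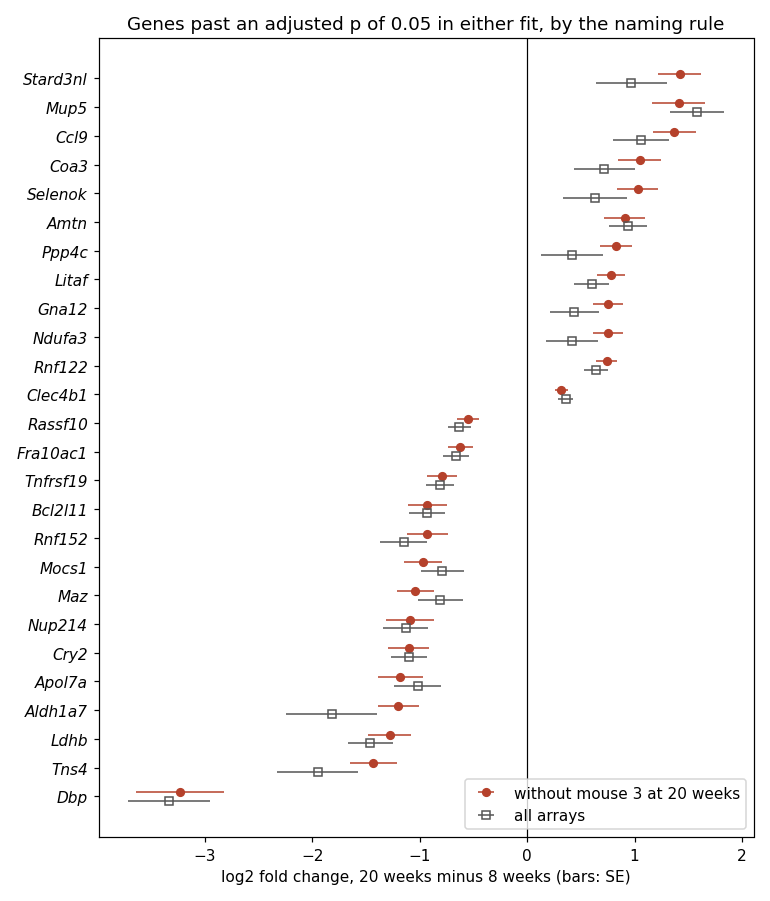
Log2 fold changes, 20 weeks minus 8 weeks, of the called genes the text names, with SE, with all arrays and without mouse 3 at 20 weeks. Dbp lies farthest below 0, at -3.33 with all arrays, and Mup5 rose by 1.58.

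The largest difference was in a gene of the circadian output. Dbp, a transcription factor that binds D-boxes and cycles with the clock in many tissues, had log2 values of 6.42, 6.43, 7.03, 8.90 and 8.39 in mice 1 to 5 at 20 weeks, against 10.41, 10.21, 10.75, 11.20 and 11.25 at 8 weeks. All 20-week mice lay below all 8-week mice, with mice 4 and 5 closest to them. Dbp fell 10.1-fold (log2 fold change -3.33, SE 0.38, limma adjusted p = 0.000271), and 9.38-fold without mouse 3 (adjusted p = 0.0022). It was past the threshold in 24 of 26 other settings, the exceptions being the fits of these ages alone. From the youngest to the oldest of the 5 ages, mean log2 values of Dbp were 10.08, 10.76, 10.47, 10.71 and 7.43, so the 4 younger ages lay close together and the 20-week mice below them.

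Of 24 measured genes of the clock and its output, 2 fell and none rose, both with and without mouse 3, beside 0.0715% of all genes in each direction without it. At an unadjusted p under 0.05 without mouse 3, 8 were lower and 3 higher, beside 3.97% and 3.8% of all genes. With all arrays 9 were lower and 3 higher, beside 7.07% and 4.43%. Without mouse 3, 5 lay below and 1 above the 8-week mice without overlap, beside 1.59% and 1.52% of all genes. The median log2 fold change of the list was then -0.18, against 0.02 over all genes. Cry2, a repressor of the clock, was the other gene that fell, with 6.05, 5.84, 6.26, 6.81 and 6.25 in mice 1 to 5 at 20 weeks, against 7.19, 7.09, 7.70, 7.13 and 7.58 at 8 weeks. The groups did not overlap (log2 fold change -1.10, SE 0.17, limma adjusted p = 0.0121 with all arrays and 0.0163 without mouse 3). Without mouse 5 at 8 weeks the adjusted p of Cry2 was 0.0543.

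Usp2, a deubiquitinating enzyme with rhythmic expression, had 7.58, 7.31, 5.76, 8.41 and 8.35 at 20 weeks, against 8.60, 8.52, 9.54, 9.5 and 9.87 at 8 weeks. Its groups did not overlap, and the log2 fold change was -1.72 with all arrays (limma adjusted p = 0.0716) and -1.29 without mouse 3 (0.061), which passed after quantile normalization (0.0176). Genes on the opposite arm of the clock had higher values at 20 weeks in some mice. Nfil3, which represses genes at D-boxes, had 6.16, 5.01, 4.34, 3.47 and 5.08 at 20 weeks, against 3.41, 3.43, 3.35, 3.47 and 3.26 at 8 weeks. Mouse 4 at 20 weeks was level with the highest 8-week mouse and the other 20-week mice lay above (log2 fold change 1.43, limma adjusted p = 0.0962, and 0.0452 without mouse 3 after quantile normalization).

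Further clock genes were chosen after their values were seen. Nr1d1, a nuclear receptor that represses Arntl, had 6.78, 6.35, 3.37, 6.80 and 5.05 at 20 weeks, against 7.04, 8.16, 7.76, 7.22 and 8.07 at 8 weeks. The groups did not overlap, though mice 1 and 4 at 20 weeks came close to mice 1 and 4 at 8 weeks (log2 fold change -1.40 without mouse 3, limma adjusted p = 0.134, and 0.0325 after quantile normalization). Per2, a repressor of the clock, had 3.76, 3.59, 4.68, 4.67 and 4.09 at 20 weeks, against 4.98, 4.46, 6.43, 5.64 and 6.73 at 8 weeks, and its values overlapped through mouse 2 at 8 weeks (log2 fold change -1.62 without mouse 3, adjusted p = 0.134). Tef, a relative of Dbp, had 7.65, 7.80, 7.27, 8.90 and 8.79 at 20 weeks, against 8.88, 8.58, 9.90, 10.29 and 10.19 at 8 weeks. Its groups overlapped slightly (-1.28 without mouse 3, adjusted p = 0.143). From the youngest to the oldest age, mean log2 values of Per2 were 4.14, 5.65, 3.8, 4.95 and 4.16. Those of Tef were 8.26, 9.57, 9.43, 9.62 and 8.08. Unlike Dbp, both genes were thus also low at 4 weeks, and Per2 was lowest at 12 weeks and highest at 8 weeks. Means of Cry2, Usp2 and Nr1d1 were lowest at 20 weeks, like that of Dbp.

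Genes of the positive arm of the loop had higher values in some 20-week mice. Arntl, which encodes Bmal1, had 4.00, 2.76, 2.72, 2.55 and 2.60 at 20 weeks, against 2.55, 2.56, 2.53, 2.53 and 2.50 at 8 weeks, so that mouse 1 at 20 weeks was alone well above the rest (log2 fold change 0.44 without mouse 3, limma adjusted p = 0.483). Npas2, a partner of Arntl, had 4.80, 4.24, 4.20, 3.32 and 3.55 at 20 weeks, against 3.34, 3.34, 3.20, 3.30 and 3.28 at 8 weeks. Mice 1 to 3 were the high ones, and mouse 4 fell within the 8-week range (0.69 without mouse 3, adjusted p = 0.143). Mouse 1 at 20 weeks had the highest Arntl, Npas2 and Nfil3 and the lowest Dbp, and mouse 4 had the highest Dbp and the lowest Nfil3. Other repressors showed smaller differences, with log2 fold changes without mouse 3 of -0.93 for Cry1 (adjusted p = 0.195), -0.31 for Per3 (0.356) and -0.09 for Per1 (0.962).

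**Figure D3:**
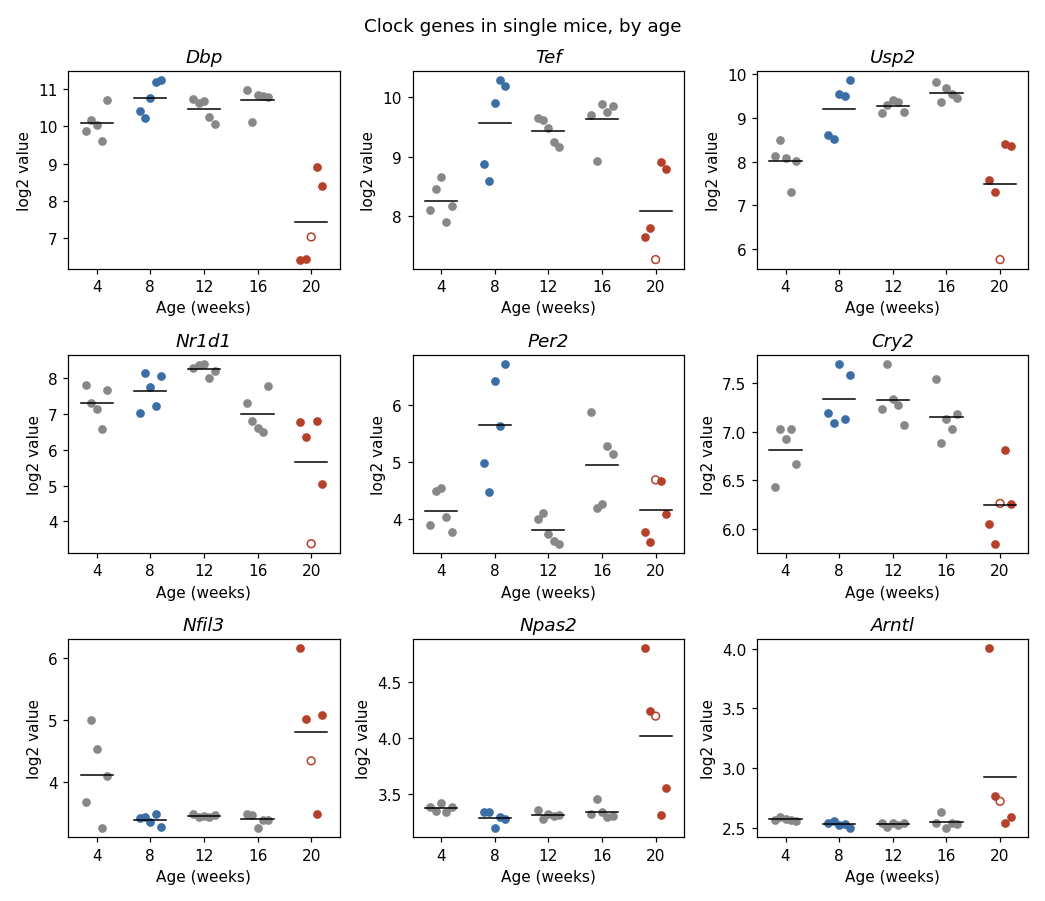
Log2 values of clock genes in each mouse at 20 and 8 weeks, with the other ages in grey, the mean of the 5 mice as a black line and mouse 3 at 20 weeks as a hollow point. Dbp at 20 weeks lies between 6.42 and 8.90, below all 8-week mice (10.21 to 11.25) and Arntl in mouse 1 at 20 weeks (4.0) lies above all 8-week mice.

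Promoters of RefSeq genes (build GRCm38.p6, 300 bases around the start) were searched on both strands for the E-box CACGTG, the D-box TTATGCAA or TTATGTAA and the core of the Rev-erb and Ror element (AA, any base, T, then A or G, then GGTCA). None of these motifs contains another. The E-box was in 7.15% of 32851 promoters, the D-box in 1.66% and the Ror core in 0.435%. Of 24 measured clock genes 20 had a promoter, and 5 held an E-box (Bhlhe41, Ciart, Cry1, Per1 and Tef), 2 a D-box (Per1 and Per3) and 1 the Ror core (Arntl). The windows of Dbp, the gene with the largest change, of Tef with its E-box and of Arntl with its Ror core are printed, with the match in capitals. None of these letters is in the Dbp window, and a match is a description of sequence only. They lie at chr7:45704997-45705296, chr15:81811164-81811463 and chr7:113207261-113207560, all on the plus strand.
Dbp: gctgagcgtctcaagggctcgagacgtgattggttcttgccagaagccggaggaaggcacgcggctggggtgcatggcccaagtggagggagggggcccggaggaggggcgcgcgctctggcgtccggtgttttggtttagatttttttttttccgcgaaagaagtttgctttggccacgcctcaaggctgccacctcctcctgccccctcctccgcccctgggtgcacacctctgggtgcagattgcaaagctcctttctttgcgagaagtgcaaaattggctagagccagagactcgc
Tef: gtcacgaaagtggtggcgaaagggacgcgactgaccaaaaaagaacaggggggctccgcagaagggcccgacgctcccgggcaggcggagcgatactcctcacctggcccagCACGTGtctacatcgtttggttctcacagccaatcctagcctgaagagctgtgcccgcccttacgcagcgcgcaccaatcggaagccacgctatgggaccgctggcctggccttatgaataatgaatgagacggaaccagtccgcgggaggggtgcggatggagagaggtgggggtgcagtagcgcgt
Arntl: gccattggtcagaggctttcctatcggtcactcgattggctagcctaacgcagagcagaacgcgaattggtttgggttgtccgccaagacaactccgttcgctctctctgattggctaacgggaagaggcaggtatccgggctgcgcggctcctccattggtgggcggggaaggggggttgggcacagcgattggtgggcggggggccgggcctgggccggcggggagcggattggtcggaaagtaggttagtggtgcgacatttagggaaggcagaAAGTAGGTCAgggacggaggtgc

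Further genes fell outside the clock. Ldhb, a subunit of lactate dehydrogenase, had 8.44, 8.14, 7.51, 8.23 and 8.76 at 20 weeks, against 9.78, 9.54, 9.39, 9.99 and 9.69 at 8 weeks. No values overlapped, and Ldhb fell with all arrays (-1.46, SE 0.21, limma adjusted p = 0.00722) and without mouse 3 (-1.28, adjusted p = 0.0084), as well as with each other mouse left out in turn. Tns4, a tensin of focal adhesions, had 7.76, 7.82, 5.14, 7.76 and 7.57 at 20 weeks, against 8.99, 9.5, 9.12, 8.89 and 9.29 at 8 weeks. Mouse 3 was far below the others, which were nearly level and all under the 8-week mice (-1.95, limma adjusted p = 0.0472, and -1.43, adjusted p = 0.0084 without mouse 3). With mouse 3 kept, Tns4 was no longer past the threshold without mouse 5 at 20 weeks or without any 1 mouse at 8 weeks (adjusted p up to 0.157).

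Bcl2l11, which encodes the cell death protein Bim, had 4.92, 4.46, 4.51, 4.78 and 3.99 at 20 weeks, against 5.45, 5.72, 5.10, 5.52 and 5.55 at 8 weeks. It fell by 0.93 both with all arrays (SE 0.17, limma adjusted p = 0.0285) and without mouse 3 (adjusted p = 0.0405), without overlap. Its adjusted p was over the threshold without mouse 5 at 20 weeks (0.0509) or without mouse 2, 4 or 5 at 8 weeks (up to 0.104). Tnfrsf19, a receptor of the tumor necrosis factor family, had 6.71, 6.36, 6.42, 6.51 and 6.54 at 20 weeks, against 7.01, 7.42, 7.08, 7.30 and 7.79 at 8 weeks. It too fell without overlap (-0.81, limma adjusted p = 0.0121, and 0.0216 without mouse 3), although not without mouse 2 at 8 weeks (adjusted p = 0.0545). These are the 2 of 40 measured genes of caspases, Bcl2 proteins and death receptors that fell, beside 0.0605% of all genes with all arrays and 0.0715% without mouse 3, and none of the 40 rose. At an unadjusted p under 0.05, 5 of the list were lower and 2 higher both with and without mouse 3, beside 7.07% and 4.43% of all genes with it and 3.97% and 3.8% without it. Bmf, another cell death gene of the Bcl2 family, had a log2 fold change of -0.80 without mouse 3 (adjusted p = 0.166).

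Among other genes that fell with all arrays were Rassf10 (-0.63, limma adjusted p = 0.0172), Fra10ac1 (-0.66, 0.0247), the nuclear pore gene Nup214 (-1.13, 0.0342), the ubiquitin ligase gene Rnf152 (-1.15, 0.0468) and Pter. Without mouse 3 the adjusted p was 0.0597 for Nup214 and 0.0581 for Rnf152, while the other genes of this group still fell. Leaving out mouse 2, 4 or 5 at 8 weeks ended each of the calls of Rassf10, Fra10ac1, Nup214 and Rnf152 (highest adjusted p over all mice left out 0.0663, 0.0891, 0.137 and 0.163). A further set fell without mouse 3 but not with all arrays in the same fit, namely the aldehyde dehydrogenase gene Aldh1a7 (-1.20, limma adjusted p = 0.00977), the zinc finger gene Maz (-1.04, 0.00977), the apolipoprotein gene Apol7a (-1.18, 0.0226) and Mocs1, which acts in making the molybdenum cofactor (-0.97, 0.0263). With all arrays their adjusted p lay between 0.0716 (Apol7a) and 0.126 (Maz). All 4 passed with array weights, but that fit gave mouse 3 at 20 weeks a weight of 0.0163 and so nearly left it out. With mouse 3 kept, Aldh1a7 also passed after quantile normalization or without mouse 1 at 20 weeks. Aldh1a7 had 9.43, 8.83, 6.03, 9.04 and 9.26 at 20 weeks, against 10.25, 10.06, 10.56, 10.26 and 10.58 at 8 weeks. Mouse 3 again gave the lowest value, and the other 20-week mice also lay below every 8-week mouse.

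Mup5 rose both with and without mouse 3. It encodes a major urinary protein, a carrier of small molecules, and belongs to a family of near-identical genes, so the signal may include its relatives. Mup5 had 12.63, 13.20, 13.52, 12.87 and 12.07 at 20 weeks, against 11.78, 11.56, 10.81, 11.23 and 11.02 at 8 weeks. The groups did not overlap (1.58, SE 0.25, limma adjusted p = 0.0121, and 1.41, adjusted p = 0.0226 without mouse 3), and without mouse 5 at 8 weeks the adjusted p was 0.0546. From the youngest to the oldest age, mean log2 values of Mup5 were 12.9, 11.28, 11.91, 11.43 and 12.86. The mean was thus lowest at 8 weeks, and the 20-week mean was level with that at 4 weeks. Rnf122, a ubiquitin ligase gene, had 5.91, 5.44, 5.09, 5.57 and 5.39 at 20 weeks, against 4.81, 4.82, 4.78, 4.79 and 4.99 at 8 weeks. All 20-week mice were higher (0.64, limma adjusted p = 0.0217, and 0.74, adjusted p = 0.00294 without mouse 3). Without mouse 2, 3 or 4 at 8 weeks the adjusted p of Rnf122 was 0.0724, 0.053 or 0.0795.

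Amtn, the amelotin gene of enamel formation, rose with all arrays (0.94, limma adjusted p = 0.0396) but had an adjusted p of 0.061 without mouse 3. Clec4b1, a C-type lectin gene of dendritic cells, rose by 0.36 (0.0285 with all arrays, 0.0405 without mouse 3). Its signal was low and flat at 8 weeks (3.96 to 4.04), and its highest 20-week values were in mice 3 and 5 (4.54 and 4.64). Without mouse 2, 3, 4 or 5 at 8 weeks neither gene passed, with adjusted p up to 0.157 for Amtn and 0.107 for Clec4b1. Genes that rose without mouse 3 but not with all arrays in the same fit included Stard3nl, a gene of late endosomes, with 6.66, 6.55, 4.56, 6.90 and 7.01 at 20 weeks, against 5.36, 4.94, 5.26, 5.27 and 5.98 at 8 weeks. Mouse 3 was the lowest of all 10, while the other 20-week mice exceeded every 8-week mouse (1.42 without mouse 3, limma adjusted p = 0.00294, and 0.97, adjusted p = 0.272 with it). The same held for the lysosomal gene Litaf (0.78, adjusted p = 0.00977), the phosphatase gene Ppp4c (0.83, 0.0263), the G protein gene Gna12 (0.75, 0.0263), the selenoprotein gene Selenok (1.03, 0.0263) and Coa3, which acts in building cytochrome c oxidase (1.05, 0.0361), all given without mouse 3. With it, their adjusted p lay between 0.137 (Litaf) and 0.361 (Ppp4c). With array weights, which nearly left out mouse 3, Stard3nl and these 5 genes passed. After quantile normalization of all arrays Litaf, Selenok and Coa3 passed. The matrix protease gene Mmp9 rose by 0.29 without mouse 3 (0.0361), and Ppp4r3a, chosen like Pter after its values were seen and not among the largest changes, rose as well.

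Immune genes came next. In bulk tissue, fewer cells of a type and less RNA per cell cannot be told apart. Ccl9, a chemokine that attracts myeloid cells, had 7.0, 6.88, 5.59, 7.04 and 7.58 at 20 weeks, against 5.76, 5.34, 5.59, 5.74 and 6.35 at 8 weeks. Mouse 3 was level with mouse 3 at 8 weeks, and the other 20-week mice exceeded all 8-week mice. Ccl9 rose without mouse 3 (1.37, SE 0.20, limma adjusted p = 0.00392), against an adjusted p of 0.103 with it. It was the only one of 35 measured chemokine genes that passed, and 7 of them were higher and none lower at an unadjusted p under 0.05 without mouse 3, beside 3.8% and 3.97% of all genes (5 and 1 with all arrays).

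Of 52 measured genes of the interferon response none passed the adjusted threshold, with or without mouse 3. At an unadjusted p under 0.05 without mouse 3, 13 were higher and none lower, beside 3.8% and 3.97% of all genes, and the median was 0.13, against 0.02 over all genes. With all arrays 10 were higher and none lower. Mean levels of the list were 5.24, 5.56, 4.87, 5.55 and 5.23 in mice 1 to 5 at 20 weeks, against 4.96, 5.09, 5.01, 5.36 and 5.10 at 8 weeks. Mice 2 and 4 at 20 weeks were the highest and mouse 3 the lowest, and mouse 4 at 8 weeks lay within the range of the 20-week mice. Iigp1, an interferon-inducible GTPase gene, had 5.50, 6.40, 4.78, 6.60 and 5.33 at 20 weeks, against 4.82, 4.79, 5.02, 5.44 and 4.62 at 8 weeks. Its values overlapped (1.02 without mouse 3, limma adjusted p = 0.266). Among others of the list, the antiviral enzyme gene Oas1a had a log2 fold change of 0.84 without mouse 3 (0.238), the guanylate-binding protein gene Gbp6 0.93 (0.279) and the chemokine gene Cxcl10 0.70 (0.276).

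Cxcl10 and Oas1a are shown because both hold the interferon-stimulated response element (GAAA, any 2 bases, then GAAA, searched on both strands), in capitals, which was in 3.44% of all promoters and in 21 of 38 interferon genes with a promoter. The element TTCNNNGAA, bound by Stat factors, was in 8.3% of all promoters and in 12 of the 38. In Oas1a a pair of overlapping matches runs on without a gap. The windows lie at chr5:92348840-92349139 and chr5:120907476-120907775, both on the minus strand of GRCm38.p6.
Cxcl10: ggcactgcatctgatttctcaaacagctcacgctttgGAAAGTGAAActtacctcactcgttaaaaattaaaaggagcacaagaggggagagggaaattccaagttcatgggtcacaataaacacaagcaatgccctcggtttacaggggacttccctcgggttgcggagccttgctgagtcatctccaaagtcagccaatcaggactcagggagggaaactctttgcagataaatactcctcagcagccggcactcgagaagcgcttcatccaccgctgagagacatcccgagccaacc
Oas1a: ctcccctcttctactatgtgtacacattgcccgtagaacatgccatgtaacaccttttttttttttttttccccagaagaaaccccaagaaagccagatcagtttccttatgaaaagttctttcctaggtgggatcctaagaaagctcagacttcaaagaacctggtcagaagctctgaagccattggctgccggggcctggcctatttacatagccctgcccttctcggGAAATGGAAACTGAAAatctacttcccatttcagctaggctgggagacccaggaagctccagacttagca

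Genes of antigen presentation did not pass either, with or without mouse 3. After quantile normalization without mouse 3, 1 class I gene passed, H2-D1, which was higher at 20 weeks (limma adjusted p = 0.00836). Of 21 class I and peptide loading genes 6 were higher and none lower at an unadjusted p under 0.05 without mouse 3 (median 0.36), beside 3.8% and 3.97% of all genes, but 1 was higher and 1 lower with all arrays (median 0.17), beside 4.43% and 7.07%. Of 10 class II genes 3 were higher and none lower, both without mouse 3 (median 0.26) and with all arrays (median 0.42). H2-Ab1, a class II chain, had 7.45, 8.29, 6.05, 7.91 and 7.73 at 20 weeks, against 5.91, 6.51, 6.18, 7.42 and 6.60 at 8 weeks. Apart from mouse 3 all 20-week mice were higher, with mouse 1 just above mouse 4 at 8 weeks (1.32 without mouse 3, limma adjusted p = 0.288). The class I gene H2-Q2, one of a group of near-identical genes, had a log2 fold change of 1.15 without mouse 3 (0.199) and 0.67 with all arrays (0.355), and the proteasome subunit gene Psmb9 1.01 (0.475).

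C1qa, a chain of complement C1q made by macrophages, showed how far mouse 3 alone can move a value. It had 8.94, 8.87, 2.97, 9.21 and 9.21 at 20 weeks, against 7.94, 7.89, 7.68, 8.15 and 8.24 at 8 weeks. The log2 fold change was -0.14 with all arrays (limma adjusted p = 0.91) and 1.08 without mouse 3 (0.169, and 0.0245 after quantile normalization). C1qb, another chain, had 0.85 without mouse 3 (0.143, and 0.0252 after quantile normalization). Of 27 complement genes 4 were higher and none lower at an unadjusted p under 0.05 without mouse 3 (3 and none with all arrays), beside 3.8% and 3.97% of all genes. Of 32 genes of macrophages and dendritic cells 4 were higher and none lower in both cases. Among them were Fcgr3 (0.64, adjusted p = 0.152, and 0.033 after quantile normalization), Tyrobp (0.84, 0.294) and Aif1 (0.61, 0.444). Defining macrophage markers were level, Adgre1 between 7.1 and 7.98 at 20 weeks and between 6.96 and 7.33 at 8 weeks, and Csf1r between 6.53 and 6.97 at 20 weeks and between 6.63 and 7.35 at 8 weeks.

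Lymphocyte genes varied widely between mice of the same age. None of 26 T cell genes had an unadjusted p under 0.05 without mouse 3 (1 was higher with all arrays), and of 25 B and plasma cell genes none was higher and 1 lower (1 and 1 with all arrays), beside 3.8% and 3.97% of all genes without it and 4.43% and 7.07% with it. Mean levels of the B and plasma cell list were 3.39, 4.42, 5.10, 3.57 and 3.72 at 20 weeks, against 3.46, 3.47, 3.38, 4.26 and 3.37 at 8 weeks. Mice 2 and 3 at 20 weeks and mouse 4 at 8 weeks stood above the rest. The lymph node vessel gene Glycam1 followed in part, with 7.91 in mouse 3 and 3.84 to 4.51 in the other mice at 20 weeks, against 6.84 in mouse 4 and 4.01 to 4.20 in the others at 8 weeks. Ighm, the heavy chain of immunoglobulin M, had 3.20, 8.04, 9.60, 4.50 and 5.20 at 20 weeks, against 3.12, 3.05, 2.98, 5.88 and 2.96 at 8 weeks (2.51 with all arrays, limma adjusted p = 0.355, and 1.64 without mouse 3, adjusted p = 0.877). Mouse 4 at 8 weeks was also the highest 8-week mouse for the interferon, class I and class II lists, while mouse 4 at 20 weeks was among the highest for the interferon list with a B and plasma cell mean of 3.57. The role of lymphoid tissue in those lists was not tested. Gzma, a granzyme of cytotoxic cells, had 3.75, 5.14, 3.58, 3.71 and 4.97 at 20 weeks, against 3.37, 2.93, 3.13, 3.39 and 3.30 at 8 weeks. All 20-week mice were higher, mice 2 and 5 most (1.17 without mouse 3, limma adjusted p = 0.061, and 0.0252 after quantile normalization).

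**Figure D4:**
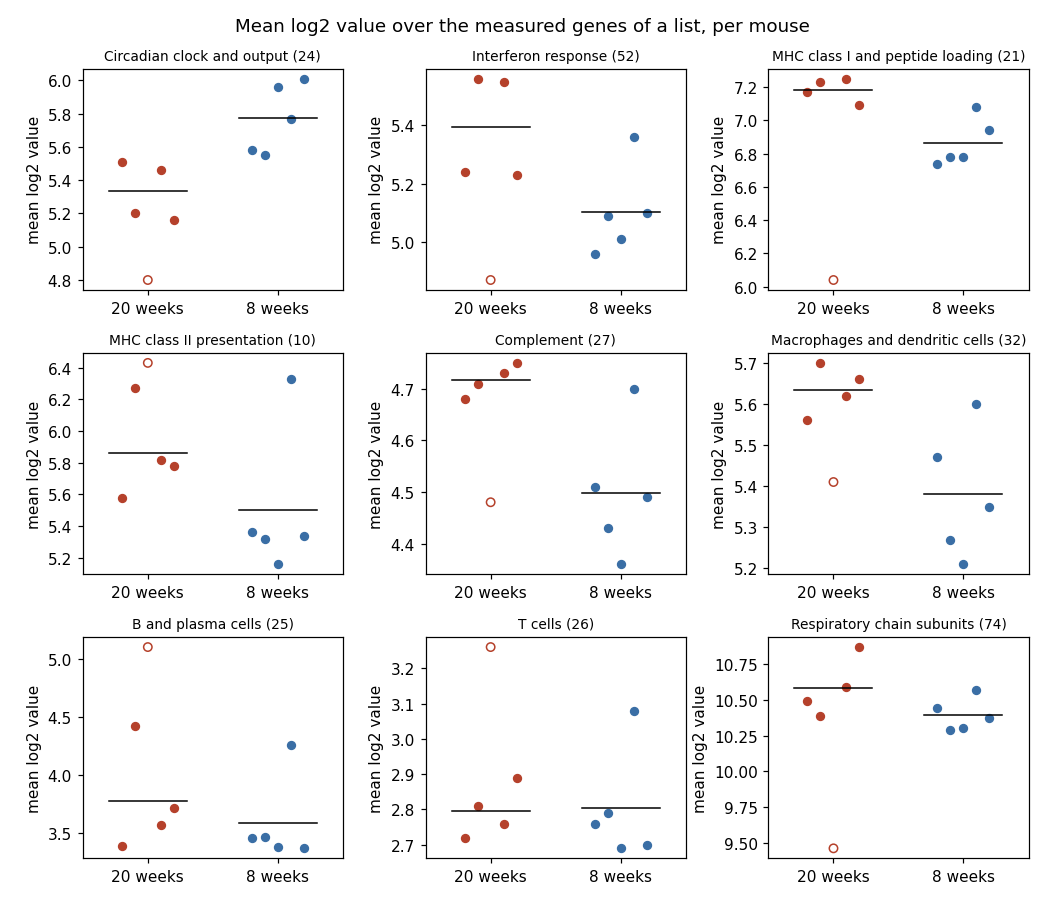
Mean log2 level of gene lists in each mouse at 20 and 8 weeks, with mouse 3 at 20 weeks hollow and the 20-week line giving the mean without it. The B and plasma cell list is high in mice 2 and 3 at 20 weeks (4.42 and 5.10) and mouse 4 at 8 weeks (4.26).

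Gland products differed little. Of 14 measured kallikreins and growth factors of the granular duct, 1 was lower and none higher at an unadjusted p under 0.05 with or without mouse 3. This was Klk1, the kallikrein with the ranges given above, whose groups did not overlap although the log2 fold change was -0.22 without mouse 3 (limma adjusted p = 0.138). Of 23 parotid and serous products 1 was higher, Smr2 (0.91, 0.226), and 1 lower, the lactoperoxidase gene Lpo (-0.53, 0.616), the same numbers as with all arrays and near the shares of all genes (3.8% and 3.97% without mouse 3). Among 30 keratins and transcription factors of ducts and basal cells 5 were lower and none higher with or without mouse 3, beside 7.07% lower and 4.43% higher among all genes with it and 3.97% and 3.8% without it, including Klf5 (-0.28, 0.0637) and Krt5 (-0.50, 0.441).

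Among secretory stress genes, the counts of the endoplasmic reticulum list turned with mouse 3. The amino acid stress and heat shock lists had more lower than higher members with or without it. Of 53 genes of folding and export in the endoplasmic reticulum, 7 were higher and 4 lower at an unadjusted p under 0.05 without mouse 3 (median 0.06), beside 3.8% and 3.97% of all genes, but 1 was higher and 5 lower with all arrays (median -0.22), beside 4.43% and 7.07%. Xbp1, a transcription factor of the unfolded protein response, had 11.16, 11.38, 10.24, 11.19 and 11.54 at 20 weeks, against 11.96, 11.77, 11.44, 11.94 and 11.75 at 8 weeks. Mouse 5 at 20 weeks overlapped mouse 3 at 8 weeks (-0.45 without mouse 3, limma adjusted p = 0.163, and 0.0325 after quantile normalization). The chaperone gene Dnajb9 had a log2 fold change of 0.82 (0.218, and 0.0186 after quantile normalization). Sdf2l1, another chaperone gene, had 0.94 (0.228, with 0.58 with all arrays), and the disulfide isomerase gene Pdia4 had -1.43 (0.218). Of 40 genes of the amino acid stress response 9 were lower and 3 higher without mouse 3, and 17 lower and 1 higher with all arrays, with the serine synthesis genes Psat1 at -1.16 (0.297) and Phgdh at -0.56 (0.249) and the stress kinase relative Trib3 at -0.81 (0.241). Of 30 cytosolic heat shock genes 4 were lower and none higher without mouse 3 and 7 and none with all arrays, Hspa4 among the 4 (-0.36, 0.228).

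Genes of protein synthesis and respiration had more higher than lower members without mouse 3. Of 74 respiratory chain subunits 14 were higher and 1 lower at an unadjusted p under 0.05 without mouse 3, beside 3.8% and 3.97% of all genes, with a median of 0.14. With all arrays 3 were higher and 3 lower, beside 4.43% and 7.07% of all genes. Ndufa3, a subunit of complex I, rose, with 11.73, 11.60, 10.27, 11.98 and 12.28 at 20 weeks, against 11.19, 11, 11.22, 11.10 and 11.22 at 8 weeks. Only mouse 3 lay below the 8-week mice (0.75 without it, limma adjusted p = 0.028, and 0.42, adjusted p = 0.355 with it). Of 44 ribosomal protein genes 10 were higher and 1 lower (median 0.15), and 6 and 1 with all arrays, for example Rpl37a at 0.70 without mouse 3 (0.061). After quantile normalization without mouse 3, 18 respiratory chain subunits were higher and 8 lower (median 0.06), and 7 ribosomal protein genes were higher and 1 lower (median 0.05). Mouse 5 at 20 weeks, whose actin 3' to 5' difference of 3.751 was second to mouse 3, had the highest mean of both lists (10.87 and 11.12), and the role of RNA quality was not tested.

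Some genes of lipid metabolism had lower values and others higher ones. Cpt1a, which brings fatty acids into mitochondria, had 8.66, 8.27, 6.67, 8.17 and 8.22 at 20 weeks, against 8.88, 9.43, 9.23, 8.94 and 9.45 at 8 weeks. Its groups did not overlap (-0.86 without mouse 3, limma adjusted p = 0.061, and 0.0046 after quantile normalization). Of 34 genes of fatty acid oxidation 2 were lower and 1 higher at an unadjusted p under 0.05 without mouse 3, beside 3.97% and 3.8% of all genes, and 6 and 2 with all arrays, beside 7.07% and 4.43%, Cpt2 being the other lower one without mouse 3 (-0.43, adjusted p = 0.143). The higher one was Decr2, with a mean of 5.58 at 20 weeks without mouse 3, against 4.65 at 8 weeks (limma adjusted p = 0.316). Of 27 genes of fatty acid synthesis 2 were lower and 1 higher without mouse 3 (3 and 2 with all arrays), and Elovl6, an enzyme of this path, had -1.17 (0.134, and 0.0325 after quantile normalization). Of 66 genes of oxidative stress and conjugation 7 were lower and 3 higher without mouse 3 (median 0.01) and 13 and 4 with all arrays (median -0.19). Aldh1a7 was the only one that fell, and the glutathione transferase gene Mgst3 was among the 3 (1.07, 0.145, and 0.68 with all arrays).

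Matrix genes lay on both sides. Of 38 collagen chains 6 were lower and 2 higher at an unadjusted p under 0.05 without mouse 3, beside 3.97% and 3.8% of all genes, 7 were lower and 3 higher with all arrays, and none passed the adjusted threshold. Of 55 matrix glycoproteins, enzymes and inhibitors 4 were lower and 3 higher without mouse 3 (median 0.00) and 6 and 3 with all arrays. The protease gene Adamts5 of this list was higher in all 20-week mice, without overlap (0.43 with all arrays, limma adjusted p = 0.0864, and 0.38, adjusted p = 0.143 without mouse 3). Col1a1, a chain of type I collagen, had 6.36, 6.43, 6.00, 5.88 and 5.54 at 20 weeks, against 6.83, 6.95, 6.98, 6.75 and 7.5 at 8 weeks. The groups did not overlap (-0.95 without mouse 3, limma adjusted p = 0.169). Col4a2, of basement membranes, had -0.95 without mouse 3 (0.226) and -1.52 with all arrays (0.18). The matrix protein gene Sparc had -0.52 without mouse 3 (0.0978, and 0.00401 after quantile normalization) and -1.02 with all arrays (0.248). The proteoglycan gene Lum had 0.85 without mouse 3 (0.143, and 0.0201 after quantile normalization) and 0.47 with all arrays (0.355). Of 58 genes of mitosis and DNA replication 2 were lower and none higher without mouse 3, below the 3.97% and 3.8% of all genes, Ezh2 (-0.56, 0.425) and Mcm2 (-0.50, 0.504), and 3 and none with all arrays.

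**Figure D5:**
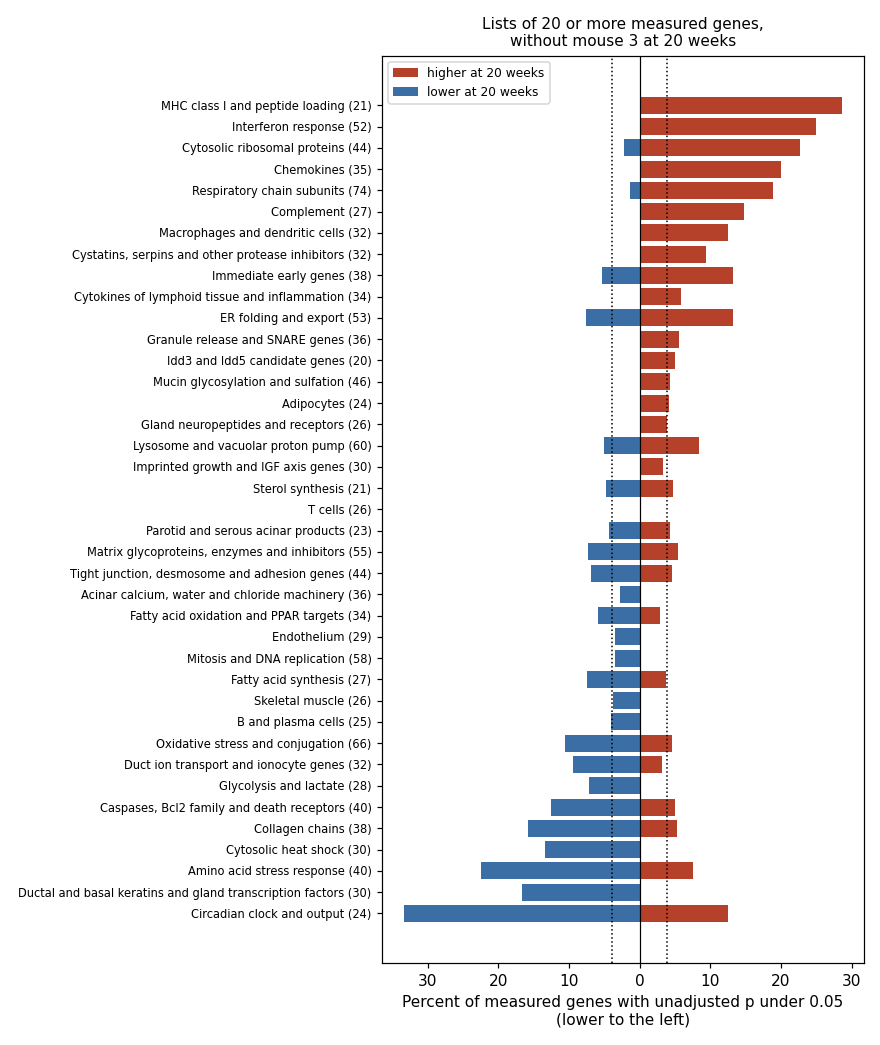
Share of each gene list with an unadjusted p under 0.05 without mouse 3 at 20 weeks, higher and lower, with dotted lines at the shares of all genes (3.8% and 3.97%). Class I, interferon, respiratory chain, ribosomal, chemokine and complement lists are among those that exceed the dotted line on the higher side. The clock list exceeds the lines on both sides, as do others, the amino acid stress, endoplasmic reticulum folding and collagen lists among them.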

How the data were processed

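RNA from the salivary glands of 25 male mice, 5 per age at 5 ages, had been hybridised to Affymetrix mouse genome arrays with 1 mouse on each. The deposited table holds log2 values made by the authors for 45101 probe sets. GCRMA is named in the methods, whereas RMA stands in the submitters' notes, and neither source states a version. The values run from 0.127 to 16.94 and were not normalized again. Such procedures can compress low signals, so fold changes of dim genes may be understated, which was not measured here. Sequencing depth does not apply, and the number of arrays limits the precision.

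Probe sets with 1 gene symbol (34958) were averaged into 18194 genes, over those whose mean signal exceeded 3.27 or, failing that, over all. All 25 arrays were fitted by age in limma 3.58.1 (R 4.3.3). The contrast 20 weeks minus 8 weeks was two-sided with Benjamini-Hochberg adjustment across genes and was repeated on 24 arrays, without mouse 3 at 20 weeks. Array quality was compared by exact permutation in scipy 1.17.1. No 2 arrays held identical values.

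The 54 gene lists and the genes were chosen with earlier results of these data known. The text names the 10 largest increases and 10 largest decreases among called genes whose values did not overlap, in each fit, and from every list at most 4 genes of lowest adjusted p. Others are stated to be chosen after seeing their values. On simulated data of this comparison (18194 genes), 82 of 100 genes changed by 1 on the log2 scale and 97 of 100 changed by 2 were recovered with all arrays, and 17 of 196 calls were false. Without mouse 3 the recovered genes were 91 and 98 of 100, and 12 of 201 calls were false. Both simulations drew independent values with the spread of the arrays without mouse 3, so neither held an array like it. They used separate random draws, so they cannot show how mouse 3 affects recovery in the real data. Alternatives changed the probe set rule, normalization, array weights, the prior, the replicate block, covariates and the arrays kept.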

Additional observations from a re-analysis of the deposited data

Results flagged for a closer look

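Of 60 groups of 5 mice checked, 10 held a mouse or array far from the rest. The chance rate of about 1 in 20 holds for independent groups. These groups share mice and their genes were chosen with values known, so the count is a description only. In mouse 3 at 20 weeks the low values were those of C1qa (2.97), Tns4 (5.14), Aldh1a7 (6.03), Stard3nl (4.56) and Cpt1a (6.67). The same array was apart in its Gapdh 3' to 5' difference (3.866) and in its correlation with its own age (0.8872). The 8-week array of mouse 4, which also had the highest B cell gene levels at that age, had the lowest correlation with its own age (0.9859). Arntl in mouse 1 at 20 weeks (4.0) and Rnf122 in mouse 5 at 8 weeks (4.99) lay above the rest of their groups.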

How the results depend on the processing

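With all arrays 4 genes were higher and 11 lower. Leaving out each mouse in turn gave 1 to 17 higher and 3 to 59 lower, the most lower without mouse 1 at 20 weeks and the fewest without mouse 2 or mouse 5 at 8 weeks. Counts of higher and lower genes were 0 and 0 with only the arrays of both ages, 39 and 46 after quantile normalization, 338 and 315 with array weights, 2 and 6 with a trend and robust prior, 10 and 10 with all probe sets averaged, and 9 and 13 of 34958 with probe sets tested singly. With mouse 3 at 20 weeks left out they were 13 and 13, and with a further change 2 and 3 (only both ages), 55 and 80 (quantile), 14 and 12 (trend), 13 and 13 (parotid score as covariate), 14 and 20 (Glycam1), and 96 and 96 (upper quartile). Chosen after seeing the data, leaving out the 3 arrays of lowest correlation gave 46 and 31, and probe sets tested singly without mouse 3 gave 27 and 20. The causes of these differences were not tested.

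Replicate numbers did not pair the mice, since same-numbered mice correlated at -0.257 to -0.0435 and none correlated best with its own number. With the replicate number as a block the counts were 1 and 9, and 10 and 8 without mouse 3.

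Of 85 genes given with a fold change, 83 kept their direction in every setting. C1qa was -0.14 with all arrays but 1.08 without mouse 3, and 1.03 to 1.13 with array weights (1.12), without the 3 lowest arrays (1.03) or without mouse 3 and with a further change (quantile, only both ages or trend 1.08, block 1.05, Glycam1 1.06, parotid score 1.03, upper quartile 1.13). With each mouse left out it ran from -0.48 to 1.08. Per1, at -0.11 and -0.36 to 0.14 with each mouse left out, was 0.22 with array weights, 0.14 without mouse 4 and 0.01 without mouse 5 at 8 weeks. The Gapdh 3' to 5' difference, 0.078 with all arrays, was -0.623 without mouse 3 at 20 weeks, -0.113 without mouse 3 and -0.051 without mouse 5 at 8 weeks (range over mice left out -0.623 to 0.332). The difference in correlation with the own age, -0.027, ran from -0.039 to -0.002 and was not past the threshold without mouse 3 or mouse 5 at 20 weeks (exact permutation p = 0.889 for both). Genes near the array background limit what can be said of T cells, of Arntl, of Per3 and of Mmp9. The same limit holds for Npas2, Nfil3 and Gzma, which were near the background at 8 weeks.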
